A study of Mus musculus with 4 samples.

Results

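The leukocyte integrins described here are 10 gene rows, Itgam, Itgax, Itgal, Itgb2, Itga4, Itgb1, Itgb7, Itgae, Itgav and Itgb5, together with the antibody row for CD11b, the surface protein encoded by Itgam. They were chosen by name from 32285 gene rows and 5 antibody rows, and all 10 genes and the antibody were found in both matrices. Droplet single-cell RNA was sequenced together with antibody-derived tags, short DNA barcodes carried by antibodies, so each cell has a count of RNA molecules and a count of bound CD11b antibody. The leukocytes were sorted from digested mouse lung as CD45-positive cells, although the labels also call them circulating CD45.2+ cells and name the cell type as a total lung cell lysate.

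Both groups, WT and Plaur KO, carried the strain label C57B6/J, and both had been sensitised with lipopolysaccharide and ovalbumin (LPS/OVA) on days 0 and 7 and given an ovalbumin aerosol on day 14. Plaur encodes the urokinase receptor, a membrane-anchored protein known to associate with integrins at the cell surface. The design names 8 mice per genotype and no unchallenged group, and the labels used here give neither ages nor the number of mice behind each library. There was 1 library per genotype, so no difference between the libraries could be set against a spread between mice. Every interval below is a 95% interval for counting error only, and molecules, or UMIs (unique molecular identifiers), of 1 library share its handling and depth.

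An integrin is a pair of an α and a β chain that holds a cell to other cells or to matrix. The β2 chain (Itgb2, CD18) pairs on leukocytes with αL (Itgal, giving LFA-1), αM (Itgam, giving Mac-1), αX (Itgax, CD11c) or αD (Itgad), and an α chain reaches the surface only as part of such a pair. The α4 chain (Itga4) pairs with β1 (Itgb1) or β7 (Itgb7), αE (Itgae, CD103) with β7, and αV (Itgav) with β1, β5 (Itgb5) and other β chains. In the lung, CD11c is a usual marker of alveolar macrophages, CD11b of neutrophils, monocytes and interstitial macrophages, and CD103 of the type 1 conventional dendritic cell (cDC1).

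The reading of surface CD11b rests on 1 designed barcode of 15 bases, so it is shown before the values:

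CD11b antibody barcode: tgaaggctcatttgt

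Genes of the main β2 partners lie on 1 chromosome. Itgal is at chr7:127296139-127335137, Itgam at chr7:128062640-128118491 and Itgax at chr7:128129526-128150657 (RefSeq, GRCm38.p6, the mm10 build). Itgam and Itgax are 11034 bases apart. These neighbours differed in the classes in which their RNA was high, as the values below show, and the 250 bases before the start used by RefSeq's promoter table are printed for both on the + strand. Capitals mark GAGGAA or its reverse complement TTCCTC, a core that ETS-family factors of myeloid cells such as PU.1 are known to bind.

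Itgam, chr7:128062390-128062639: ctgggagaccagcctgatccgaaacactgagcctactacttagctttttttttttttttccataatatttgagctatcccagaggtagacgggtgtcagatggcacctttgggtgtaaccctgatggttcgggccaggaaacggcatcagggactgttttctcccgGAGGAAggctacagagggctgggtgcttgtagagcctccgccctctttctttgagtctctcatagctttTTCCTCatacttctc

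Itgax, chr7:128129300-128129549: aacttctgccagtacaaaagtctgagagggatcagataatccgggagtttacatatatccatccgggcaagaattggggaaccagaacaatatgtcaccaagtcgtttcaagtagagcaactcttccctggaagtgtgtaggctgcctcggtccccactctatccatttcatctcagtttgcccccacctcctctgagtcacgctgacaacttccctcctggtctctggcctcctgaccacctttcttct

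The Itgam window held 2 matches, beginning 84 and 15 bases before the start, and the Itgax window held 0. Searched on both strands, the same 6 letters were found in 7639 of 32851 windows of this length (23.3%), so a match is common and describes only the letters. The window printed for Itgax ends inside the annotated gene because the promoter table takes a later start than the gene's outer limit.

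The WT-labelled library held 9024 barcodes with 42913844 gene UMIs and the KO-labelled library 10102 barcodes with 47442216. After filters and removal of 260 and 457 doublet calls, 8684 and 9584 cells were kept, with medians of 3209 and 2777.5 UMIs. CD11b gave 751413 of 977000 antibody UMIs in the WT-labelled library and 907821 of 1353265 in the KO-labelled library. The libraries shared 16 barcodes. Neither library lacked Plaur RNA, which stood at 2067.8 CPM (a gene's UMIs scaled to 1000000 UMIs of its class) in WT-labelled and 1255.9 CPM in KO-labelled neutrophils, and at 5.16 and 128 CPM in NK cells. Which part of Plaur was deleted is not stated in the labels, and a 3′ count may lie outside it, so this does not check the genotype labels.

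Cells were clustered without any integrin gene and without the antibodies, and 19 classes with at least 50 cells in each library were named from marker genes. The largest were neutrophils, with 2274 WT-labelled and 3312 KO-labelled cells, and B cells, with 1494 and 1126. A cluster of 192 WT-labelled and 684 KO-labelled cells carried classical monocyte markers and all 10 neutrophil markers at no less than 25% of the neutrophil level. Their summed neutrophil markers stood at 43697 and 53698 CPM, against 101630 and 126280 CPM in neutrophils and 112 and 294 CPM in B cells. It is kept apart as cells with monocyte and neutrophil markers. Whether its droplets held 1 cell or more than 1 was not tested, and its median of 9178.5 and 10635.5 UMIs per cell was above the 1744.5 and 1728.5 of neutrophils.

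Chain use differed more between cell classes than between libraries. Of the 10 genes, 9 had the same highest class in both libraries, the exception being Itgav, and over the 19 classes the 2 libraries' levels correlated at r = 0.946 (Itgb5) to 0.991 (Itgb1). These 19 points share 1 set of clusters and 1 pair of libraries. Levels are in CPM of all gene UMIs in a class, a scale that compares 1 gene between classes but not genes with each other, and pairs of values give the WT-labelled library first. Because a class with abundant RNA of 1 kind leaves a smaller part for other genes, CPM is also a share and not an amount per cell.

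**Figure D1:**
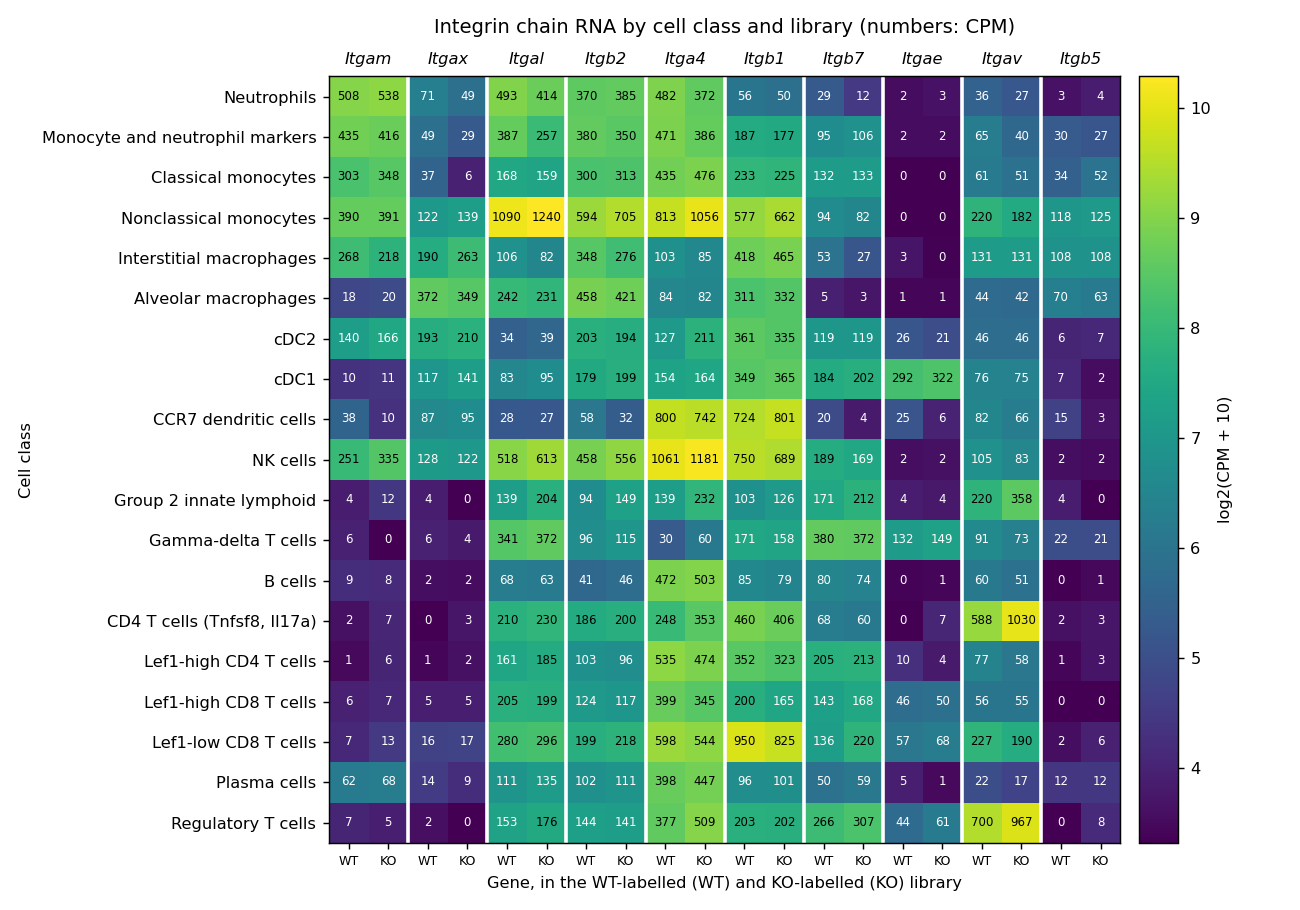
Level of each integrin chain in 19 cell classes (rows) of the WT-labelled and KO-labelled library (columns), in CPM as numbers and as log2(CPM + 10) in colour. Itgal reached its highest level in nonclassical monocytes, at 1090 and 1240 CPM, Itgae in cDC1, at 292 and 322 CPM, and Itgav in regulatory T cells and the CD4 T cells led by Tnfsf8 and Il17a.

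Itgam, the αM chain, was highest in neutrophils, at 508 CPM (interval 489 to 527) in WT-labelled cells and 538 CPM (521 to 555) in KO-labelled cells. Next came the cells with monocyte and neutrophil markers (435 and 416 CPM), nonclassical monocytes (390 and 391), classical monocytes (303 and 348), NK cells (251 and 335) and interstitial macrophages (268 and 218). Only the first step of that order, and the step down from interstitial macrophages to cDC2 at 140 and 166 CPM, was wider than the intervals of both libraries. Alveolar macrophages were far lower, at 17.8 and 20.4 CPM, and B cells stood at 8.71 and 7.69 CPM. With every cell thinned to 1000 UMIs, 38.1% and 40.0% of neutrophils had an Itgam UMI, 26.0% and 29.9% of NK cells, and 0.540% and 0.635% of B cells. B cells serve as a low reference and not as a measure of free RNA alone, since their clusters differed in Itgam, as given below. Unthinned, these shares were 59.5% and 61.5%, 46.8% and 53.9%, and 1.74% and 1.51%, at median depths of 1744.5 and 1728.5, 2826 and 2372, and 2335.5 and 2048.5 UMIs.

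Itgax, the αX chain known as CD11c, had another order. It was highest in alveolar macrophages, at 372 CPM (359 to 386) and 349 CPM (331 to 367), the class in which Itgam was low. Interstitial macrophages (190 and 263 CPM) and cDC2 (193 and 210 CPM) followed with overlapping intervals. Nonclassical monocytes, cDC1 and NK cells lay between 117 and 141 CPM and could not be ordered, and B cells stood at 1.94 and 1.83 CPM.

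Itgal, the αL chain of LFA-1, which lymphocytes use to bind ICAM-1, was highest in nonclassical monocytes, at 1090 CPM (963 to 1228) and 1240 CPM (1134 to 1354). This was above NK cells (518 and 613 CPM), whose levels in turn overlapped those of neutrophils (493 and 414 CPM). Gamma-delta T cells had 341 and 372 CPM and Lef1-low CD8 T cells 280 and 296 CPM, Lef1 being a factor of naive T cells. The lowest were cDC2, at 34.0 and 39.2 CPM, and CCR7 dendritic cells, at 27.6 and 27.3 CPM.

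Itgb2, the shared β2 chain, was broad. Nonclassical monocytes had 594 CPM (501 to 698) and 705 CPM (625 to 792), NK cells 458 and 556 CPM and alveolar macrophages 458 and 421 CPM. These 3 classes overlapped in turn, and alveolar macrophages lay above neutrophils (370 and 385 CPM). B cells had 40.7 and 45.8 CPM and CCR7 dendritic cells 57.5 and 31.6 CPM, so the α chain of Mac-1 and its β chain had different ranks among classes.

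Among the α chains that pair with β2, the mix of molecules set the classes apart. The percentages that follow are shares of the summed UMIs of Itgal, Itgam, Itgax and Itgad in a class. They serve to compare classes, since capture of 3′ ends may differ between genes, which was not tested. Neutrophils had Itgam at 47.4% and 53.7% beside Itgal at 45.9% and 41.3%, and nonclassical monocytes had mostly Itgal, at 68.0% and 69.9%. Alveolar macrophages had Itgax at 58.7% and 58.0% and Itgal at 38.2% and 38.5%, whereas cDC2 had Itgax at 52.3% and 50.5%, Itgam at 38.1% and 40.0% and little Itgal, at 9.2% and 9.4%. NK cells held Itgal, Itgam and Itgax together, at 56.9%, 27.6% and 14.1% in the WT-labelled and 56.8%, 31.0% and 11.3% in the KO-labelled library. In the T cell classes and group 2 innate lymphoid cells Itgal made up 90.5% to 98.9%. In interstitial macrophages the mix differed between the libraries: Itgam was 47.5% and 38.6% and Itgax 33.7% and 46.7%.

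**Figure D2:**
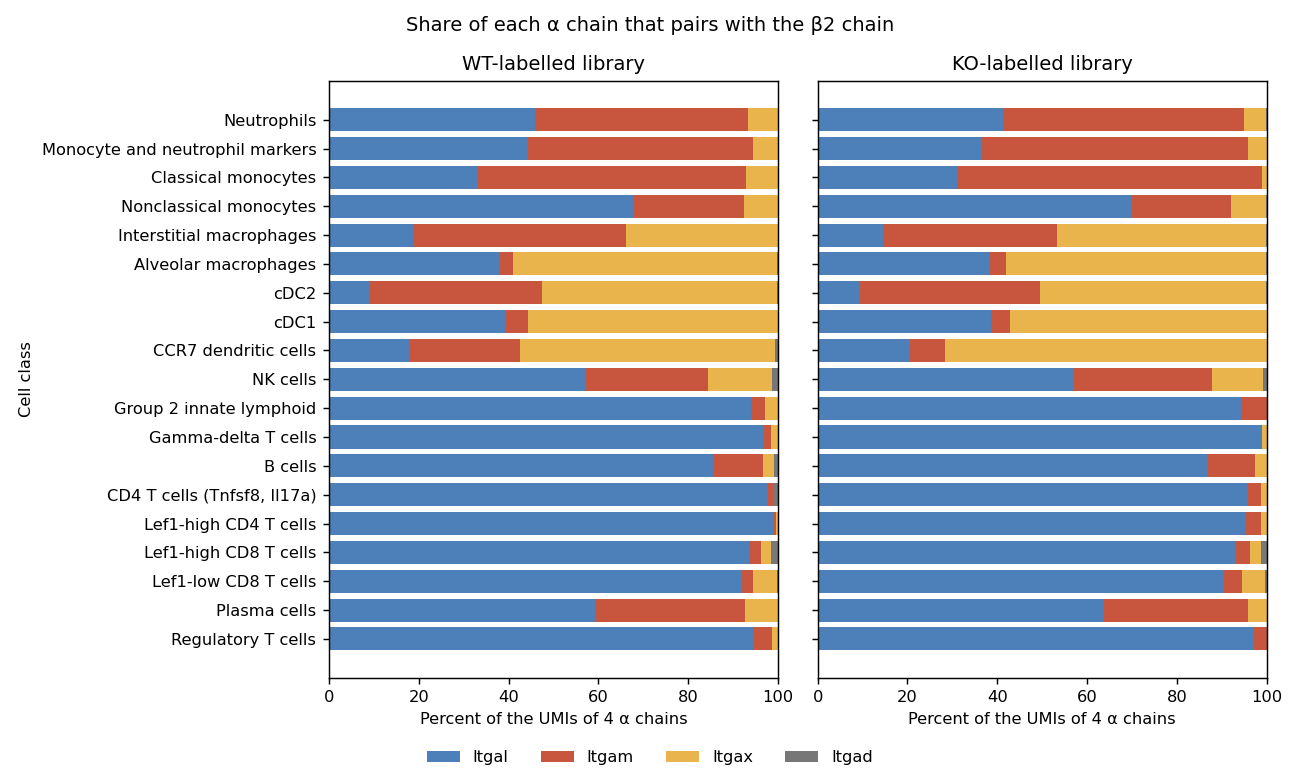
Percent of the UMIs of 4 α chains (Itgal, Itgam, Itgax, Itgad) that came from each chain, per cell class, in the WT-labelled (left) and KO-labelled (right) library. T cell bars are nearly all Itgal, neutrophils divide between Itgal and Itgam, and alveolar macrophages between Itgax and Itgal.

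Itga4, the α4 chain that binds VCAM-1 or MAdCAM-1 depending on its partner, was highest in NK cells, at 1061 CPM (997 to 1128) and 1181 CPM (1122 to 1243). Nonclassical monocytes (813 and 1056 CPM) and CCR7 dendritic cells (800 and 742 CPM) followed, and the intervals of each, taken over both libraries, overlapped those of the class before it. Lef1-low CD8 T cells lay below at 598 and 544 CPM. B cells had 472 and 503 CPM and neutrophils 482 and 372 CPM. Gamma-delta T cells were the lowest class, at 30.3 and 59.8 CPM.

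Its partners followed different classes. Itgb1, the β1 chain shared with many α chains, was highest in Lef1-low CD8 T cells (950 and 825 CPM), with CCR7 dendritic cells (724 and 801 CPM) and NK cells (750 and 689 CPM) overlapping. It was low in B cells (85.2 and 79.1 CPM) and lowest in neutrophils (55.7 and 49.8 CPM), both of which had Itga4. Itgb7, the β7 chain of gut-homing and CD103 pairs, was highest in gamma-delta T cells (380 and 372 CPM) and regulatory T cells (266 and 307 CPM), whose intervals overlapped. In cDC1 it stood at 184 and 202 CPM and in alveolar macrophages at 5.27 and 3.39 CPM.

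Itgae, the αE chain of CD103, was highest in cDC1. They had 292 CPM (268 to 318) and 322 CPM (299 to 346), above gamma-delta T cells at 132 and 149 CPM, which lay above Lef1-low CD8 T cells at 57.5 and 68.0 CPM. In both libraries these top steps were wider than the intervals. cDC2 had 26.4 and 21.1 CPM, and both monocyte classes had 0 UMIs in both libraries, which allows up to 9.19 and 2.76 CPM in classical and 12.2 and 7.47 CPM in nonclassical monocytes. In thinned cDC1, an Itgb7 UMI was found in 12 of 50 WT-labelled cells with an Itgae UMI and in 12.5% of the 136 without one, and in 12.7% of 55 and 17.5% of 189 KO-labelled cells, so the libraries differed in direction.

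Itgav, the αV chain that binds RGD-bearing matrix proteins and latent TGF-β, was highest in 2 CD4 T cell classes. Regulatory T cells had 700 and 967 CPM, and the CD4 T cells led by Tnfsf8 and Il17a had 588 and 1030 CPM. Both were above group 2 innate lymphoid cells at 220 and 358 CPM, and Lef1-high CD4 T cells had 76.9 and 58.3 CPM. Itgb5, an αV partner, was instead a chain of mononuclear phagocytes: nonclassical monocytes had 118 and 125 CPM, interstitial macrophages 108 and 108 CPM and alveolar macrophages 70.1 and 63.0 CPM. In Lef1-high CD8 T cells it was not counted in either library, which allows up to 2.11 and 2.99 CPM. Of the other β partners of αV, Itgb8 was 222 and 230 CPM in regulatory T cells. Itgb3 was 121 and 90.4 CPM in group 2 innate lymphoid cells and 77.1 and 145 CPM in gamma-delta T cells.

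Other integrin chains outside the 10 marked single classes. Itga2, a collagen-binding chain known as an NK marker, was 611 and 524 CPM in NK cells, and Itga1, a further collagen-binding chain, was 186 and 140 CPM in Lef1-low CD8 T cells. Itga6 was 193 and 160 CPM in Lef1-high CD4 T cells, and Itga5, the fibronectin receptor chain, was 114 and 96.0 CPM in interstitial macrophages. Itgad, the other β2 partner, was 13.4 and 10.4 CPM in NK cells.

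Surface CD11b, read from the antibody, was high in neutrophils, monocytes, interstitial macrophages and cDC2, and its median was low in T cells, B cells and cDC1. B cells were taken as the background class because their Itgam RNA was low: their mean tag was 4.91 UMIs per cell for WT-labelled and 5.60 for KO-labelled cells, with 95th percentiles of 11 and 12. This background includes a B cell cluster led by Sox5, of 152 and 121 cells. That cluster had Itgam at 23.5 and 15.5 CPM and a mean tag of 7.28 and 6.85. The largest B cell cluster, led by Bank1, had 4.15 and 4.35 CPM and a mean tag of 4.59 and 5.54. Neutrophils had means of 170 and 127 (medians 127 and 98), 34.6-fold and 22.7-fold over B cells of the same library. Classical monocytes had 63.9 and 55.5, nonclassical monocytes 42.2 and 35.5, and cDC2 45.1 and 45.5. Interstitial macrophages had 158 and 85.8, with lower medians of 83.5 and 41. The cells with monocyte and neutrophil markers had the highest mean tag, at 481 and 404, in cells with a median of 9178.5 and 10635.5 gene UMIs. In all, 10 of 19 classes were at or above 2-fold over B cells in both libraries, 8 were below it in both, and gamma-delta T cells were above it in the KO-labelled library alone.

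**Figure D3:**
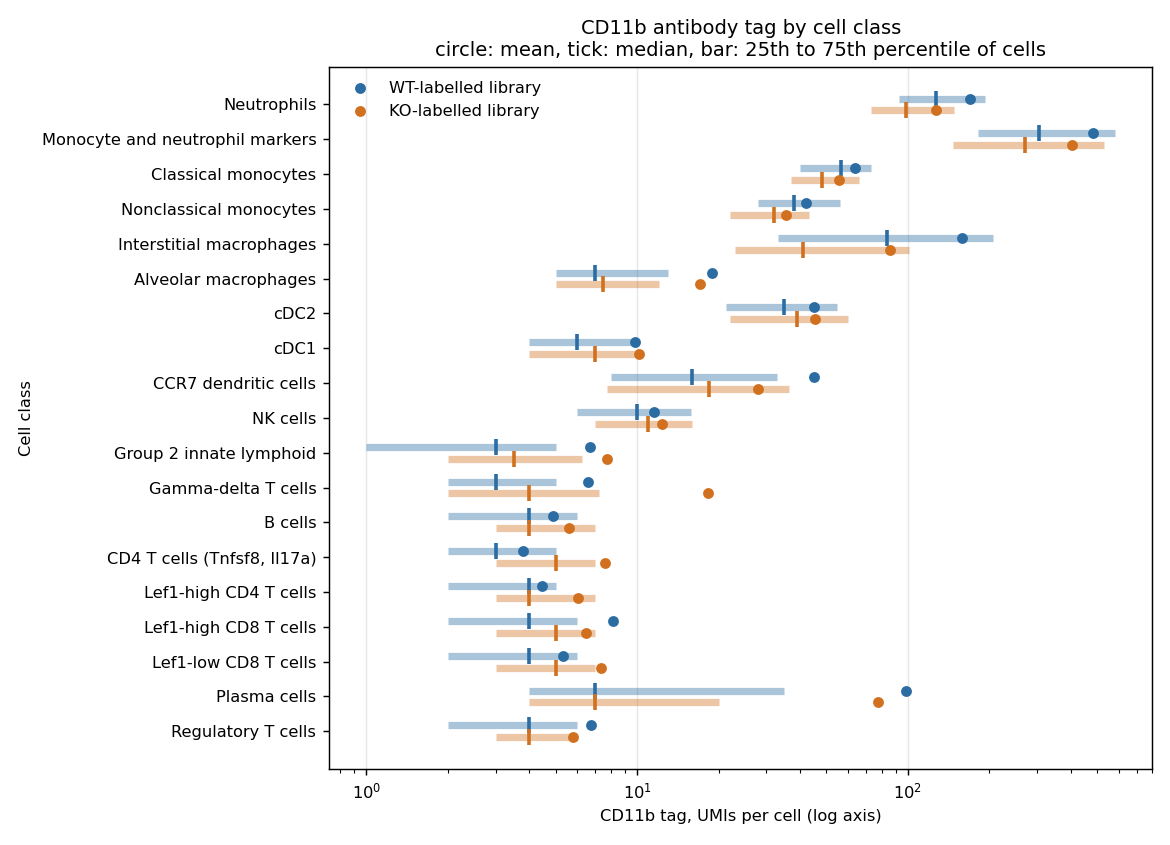
CD11b tag per cell (log axis) in 19 classes of the WT-labelled (blue) and KO-labelled (orange) library, with the mean (circle), the median (tick) and the 25th to 75th percentile of cells (bar). Neutrophils, monocytes, interstitial macrophages and cDC2 lie above the T, B and NK cell classes, and in plasma cells the mean of 98.8 and 77.6 stands far from the median of 7.

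In some classes the mean rested on few cells. The share of cells above the 95th percentile of B cells was 99.96% and 99.97% in neutrophils, 94.9% and 91.4% in interstitial macrophages and 88.5% and 88.0% in cDC2. It was 40.1% and 39.9% in NK cells, 27.5% and 22.6% in alveolar macrophages and 29.4% and 29.2% in plasma cells. In plasma cells the highest 10% of cells held 83.0% and 81.5% of the tag. Plasma cells above the B cell percentile carried 15998 and 20485 CPM of summed neutrophil markers and 149 and 163 CPM of Itgam, and the others 69.4 and 148 CPM and 1.24 and 0 CPM. Without cells that drew 1% or more of their UMIs from neutrophil markers, 72 and 99 plasma cells remained of 85 and 113, and their mean tag was 17.7 and 22.5, with Itgam at 13.6 and 20.5 CPM.

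The same split moved other classes less. CCR7 dendritic cells went from means of 45.0 and 27.8 to 32.8 and 22.4, alveolar macrophages from 18.9 and 17.04 to 17.4 and 15.6, interstitial macrophages from 158 and 85.8 to 142 and 82.5, and cDC2 from 45.1 and 45.5 to 41.8 and 42.7. In CCR7 dendritic cells above the B cell percentile, neutrophil markers summed to 3656.5 and 4964 CPM, against 41.7 and 140 CPM in the others. The part of neutrophil RNA or antibody carried by these droplets in the class means was not tested beyond this split.

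Across the 19 classes the tag followed Itgam RNA more closely than Itgb2 RNA. Pearson's r of the log2 mean tag with log2(CPM + 10) was 0.853 and 0.779 for Itgam (Spearman's rho 0.889 and 0.767), and 0.469 and 0.378 for Itgb2 (rho 0.486 and 0.440). Taking the lower of both chains gave 0.846 and 0.768. Itgam was the lower chain in every class but neutrophils, classical monocytes and the cells with monocyte and neutrophil markers. This value therefore nearly repeats that of Itgam and cannot show whether Itgb2 adds to the relation. For the other members r ran from -0.464 (Itgav) to 0.555 (Itgax) in WT-labelled and from -0.493 (Itgav) to 0.511 (Itgb5) in KO-labelled classes. The points are 19 classes of 1 library and share its depth and clustering, so r describes them and carries no p.

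**Figure D4:**
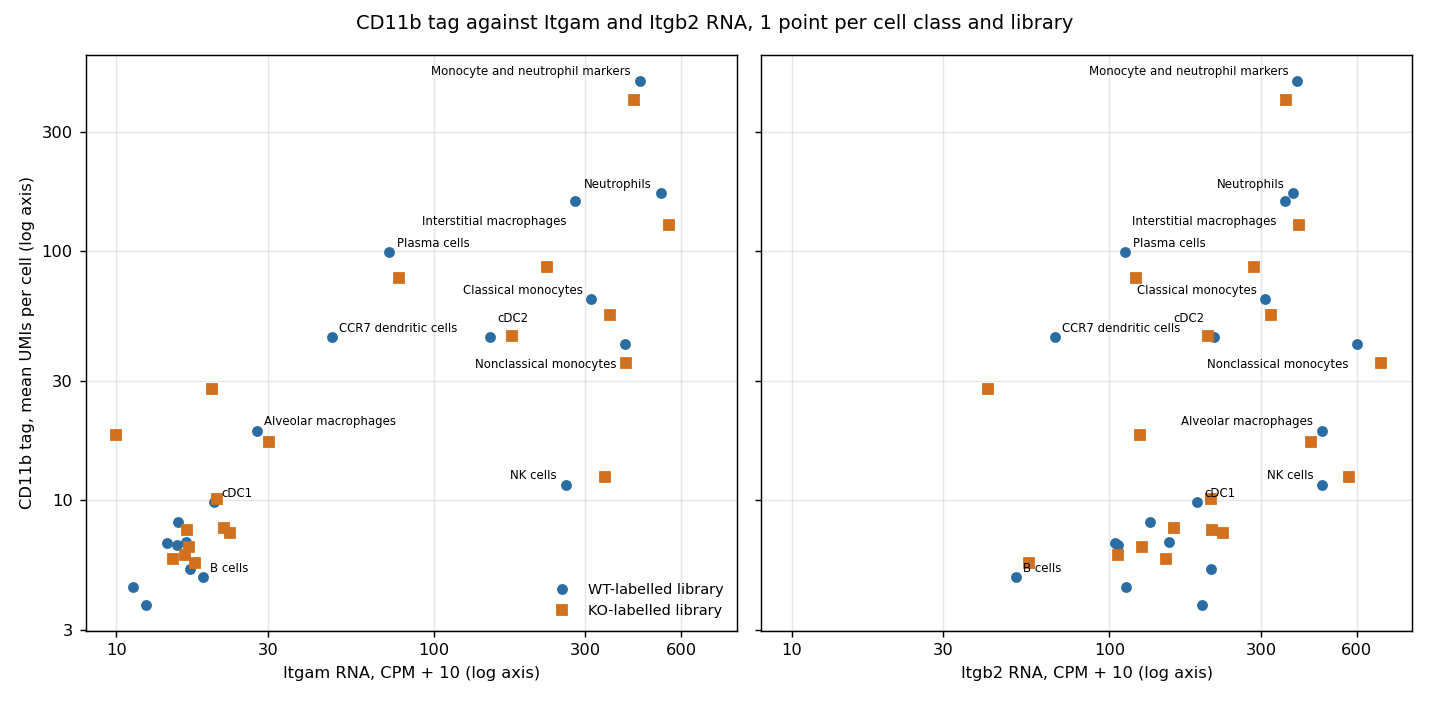
Mean CD11b tag per cell against Itgam (left) and Itgb2 (right) RNA, in CPM + 10, all axes logarithmic, 1 point per cell class and library, with the points of the WT-labelled library named for 12 classes. NK cells lie low in both panels for their RNA, and alveolar macrophages have high Itgb2 and a low tag.

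NK cells stood apart from the relation. Their Itgam RNA was 251 and 335 CPM, or 0.774 and 0.889 UMIs per cell, against 303 and 348 CPM, or 1.60 and 2.09 UMIs per cell, in classical monocytes. Their Itgb2 RNA was 1.41 and 1.48 against 1.58 and 1.88 UMIs per cell. Their mean tag was 11.5 and 12.3, or 2.35-fold and 2.20-fold over B cells. Without them r with Itgam was 0.914 and 0.854. Expressed as tag above the B cell mean per Itgam UMI, NK cells had 8.54 and 7.57, nonclassical monocytes 29.9 and 26.0, cDC2 33.7 and 30.7, interstitial macrophages 71.0 and 58.6 and neutrophils 137 and 100. Classical monocytes had 36.9 and 23.8, and the cells with monocyte and neutrophil markers 95.5 and 67.3. Plasma cells had 92.8 and 79.7 and alveolar macrophages 100 and 86.6, but their mean tags rested on a part of the cells. Alveolar macrophages had only 0.140 and 0.132 Itgam UMIs per cell. Neutrophils and nonclassical monocytes had nearly the same number of Itgam UMIs per cell (1.20 and 1.21 against 1.25 and 1.15), yet their mean tags were 170 and 127 against 42.2 and 35.5.

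Alveolar macrophages showed the tag in the presence of Itgb2 and near absence of Itgam. Their Itgb2 was among the highest 3 classes, their Itgam was 17.8 and 20.4 CPM, and their median tag was 7 and 7.5. Within them a small cluster led by Spp1, the gene of osteopontin, with 55 and 52 cells, had Itgam at 93.1 and 38.8 CPM and a mean tag of 111 and 62.7, against 13.8 and 18.4 CPM and 13.8 and 12.97 in the main cluster of 978 and 584 cells. Interstitial macrophages divided likewise into a cluster led by Gpnmb and one led by Ccl12. The Gpnmb cluster had Itgam at 289 and 244 CPM, Itgb2 at 412 and 385 CPM and a mean tag of 212 and 146. The Ccl12 cluster had Itgam at 203 and 188 CPM, Itgb2 at 143 and 151 CPM and a mean tag of 43.5 and 38.1. In these 2 clusters Itgb2 and the tag differed by more than Itgam did.

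Thinning each cell to 1000 UMIs evens the depth of the RNA but not that of the tag. In thinned cells, the Itgam UMIs of a neutrophil or NK cell went with little or no difference in mean tag. Unthinned NK cells split by their tag did differ in Itgam RNA, as given below. Neutrophils thinned to 1000 UMIs had mean tags of 174, 174 and 162 with 0, 1 and 2 or more Itgam UMIs in the WT-labelled library, and 130, 130 and 122 in the KO-labelled library. Interstitial macrophages with more UMIs mostly had a higher tag, at 145, 207 and 246 and at 80.7, 111 and 102 by Itgam, and at 134, 222 and 271 and at 76.5, 107 and 175 by Itgb2. By Itgb2 these groups also differed in depth, with median unthinned gene UMIs of 7383, 8783 and 8637.5 and of 5612, 6554 and 8251. Across cells of this class the tag went with total RNA, at a Spearman's rho of 0.486 and 0.33. The class also joins the Gpnmb and Ccl12 clusters given above, and the parts of depth and cluster were not tested. NK cells had 11.4, 12.0 and 12.7 and 12.4, 11.9 and 14.0 by Itgam, and 11.07, 12.33 and 13.36 and 11.98, 12.92 and 12.96 by Itgb2. Split by tag and unthinned, NK cells above the 95th percentile of B cells had Itgam at 304.6 and 390.9 CPM. The other NK cells had 210.5 and 297.1 CPM. Summed neutrophil markers were 101.5 and 290.7 CPM in the former and 98.9 and 219.5 CPM in the latter. In neutrophils the tag went with the total RNA of the cell, with a Spearman's rho of 0.613 and 0.521 across cells, and in NK cells it did not, at 0.02 and -0.03. Among neutrophil clusters, the one led by Cass4 had the highest mean tag (305 and 242) and medians of 3626.5 and 3654 UMIs, and the other 4 had 96.7 to 142 and 85.8 to 114, while its Itgam RNA was 514 and 536 CPM, close to that of the whole class, or 2.27 and 2.33 UMIs per cell against 0.728 to 1.06 in the other 4.

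Ranked over 38 values of class and library, the genes most like the CD11b tag, among 9454 with enough UMIs, were Il1b (r = 0.905), Ptafr (0.902), Ninj1 (0.892), Tarm1 (0.889) and Cd14 (0.886). Itgam ranked 67 (0.816) and Itgb2 1256 (0.424). The genes most like Itgam RNA were Xdh (0.948), Emilin2 (0.880), Tyrobp (0.876), Fcer1g (0.868) and Cd244a (0.860), with Itgb2 at rank 248 (0.692). The 38 points come from 2 libraries and the same classes.

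Between the libraries, mean tags relative to B cells were lower in the KO-labelled library in 13 of the 18 other classes and higher in 5. As counted, without B cells as reference, 10 of 19 classes were lower and 9 higher. In neutrophils the log2 ratio was -0.612 (interval -0.619 to -0.606), with medians of 127 and 98, and in interstitial macrophages it was -1.069 (-1.083 to -1.055), with medians of 83.5 and 41. Intervals of these tag ratios take the B cell mean as fixed and so are too narrow. The counting interval of the B cell ratio itself was -0.049 to 0.049. CCR7 dendritic cells had -0.883 (-0.951 to -0.815), yet their medians were 16 and 18.5, so the direction depended on the summary. Past 1.5-fold in the other direction were gamma-delta T cells, at 1.278 (1.132 to 1.425), and the CD4 T cells led by Tnfsf8 and Il17a, at 0.810 (0.639 to 0.983). Both have background levels of tag, with medians of 3 and 4 and of 3 and 5. In KO-labelled gamma-delta T cells 7 of 64 cells held 78.5% of the tag, and Itgam was not counted, which allows up to 12.8 CPM. Without the cells rich in neutrophil markers, the CD4 class had a mean of 5.67 in the KO-labelled library in place of 7.61. As counted, neutrophils differed by -0.421 and interstitial macrophages by -0.878.

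Relative to B cells the tag was lower in each neutrophil and interstitial macrophage cluster, by less than in the whole class. The 5 neutrophil clusters had log2 ratios from -0.525 (led by Cass4) to -0.135 (led by Rsad2, with 29 WT-labelled cells and mean tags of 101 and 105 as counted), and the interstitial macrophage clusters had -0.737 (Gpnmb) and -0.384 (Ccl12). The Gpnmb cluster made up 533 of 788 WT-labelled and 304 of 684 KO-labelled interstitial macrophages. Among neutrophils, the Cass4 cluster, with the highest tag, made up 596 of 2274 WT-labelled and 648 of 3312 KO-labelled cells. The cluster led by Retnlg, with mean tags of 96.7 and 85.8, made up 389 and 1033. The class ratios therefore include a difference in cluster mix as well as differences within clusters. Itgam RNA did not follow in neutrophils, where its log2 ratio was 0.082 (0.012 to 0.153), and in interstitial macrophages it was -0.301 (-0.417 to -0.185). Itgb2 in neutrophils was 0.060 (-0.023 to 0.143). Staining, antibody depth and genotype cannot be told apart with 1 library per genotype.

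The share of integrin values past 1.5-fold between the libraries was near that of all genes. Of 139 pairs of a gene and a class with at least 50 UMIs over both libraries, 7 were higher and 7 lower in the KO-labelled library by 1.5-fold or more. Over all genes, 4.97% of such pairs were higher and 5.36% lower by the same rule. Among the members' pairs the counting interval excluded 0 for 5 and 6 of these. Itgam (10 classes), Itgb1 (19 classes) and Itgae (5 classes) had no class past 1.5-fold. The share of all measured genes past 1.5-fold in the same class and direction is given as the background.

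**Figure D5:**
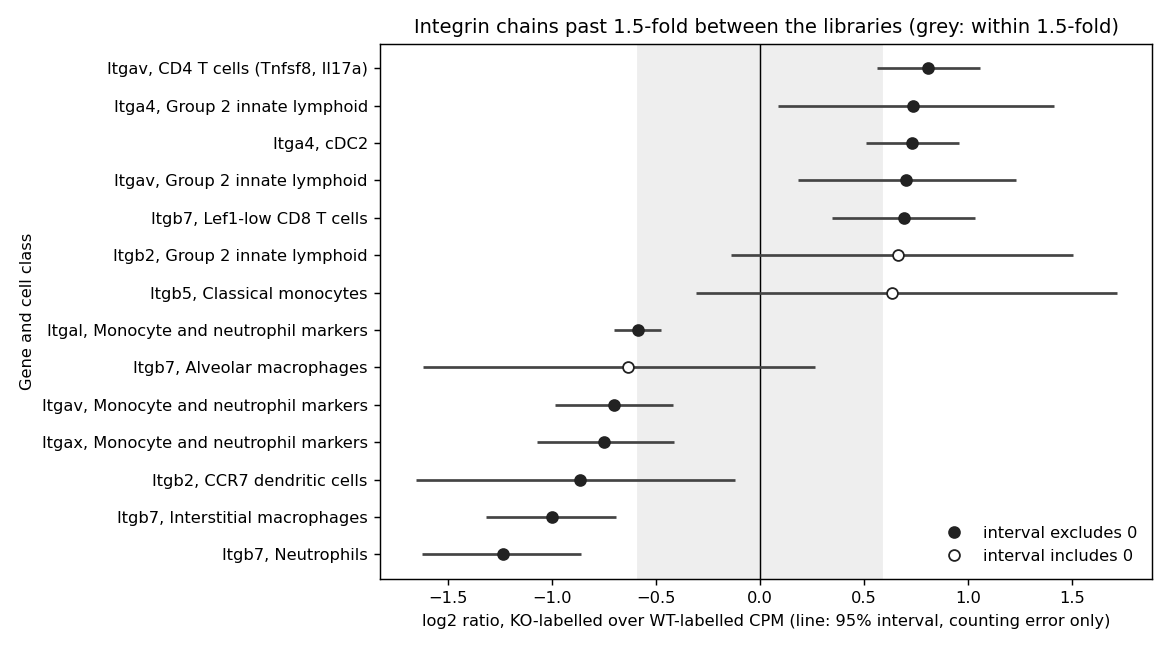
CPM of the KO-labelled library over that of the WT-labelled one, as log2, for the 14 pairs of gene and class past 1.5-fold (points) with 95% counting intervals (lines), the grey band marking less than 1.5-fold. Filled points have an interval that excludes 0, and Itgb7 appears on both sides, lowest in neutrophils at -1.236 and higher in Lef1-low CD8 T cells at 0.691.

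Itgb7 was the member lower by most. In neutrophils it was 29.4 and 12.5 CPM, a log2 ratio of -1.236 (-1.622 to -0.858), 1 of 8 members measured there and past 1.5-fold lower, against 8.42% of all genes. The neutrophil cluster led by Cass4 had -1.654 (-2.303 to -1.041). In interstitial macrophages Itgb7 was 53.4 and 26.7 CPM, a log2 ratio of -1.0 (-1.318 to -0.691), 1 of 9 members against 5.69% of genes. Within the Gpnmb cluster it was 64.7 and 43.5 CPM, at -0.575 (-0.914 to -0.245), which is within 1.5-fold. In the Ccl12 cluster it was 17.3 and 7.49 CPM. The Gpnmb cluster made up 533 of 788 WT-labelled and 304 of 684 KO-labelled cells, so the class ratio includes a difference in cluster mix. Neutrophil markers in interstitial macrophages summed to 2537.7 and 1676.9 CPM, with all 10 above 0 in both libraries. Leaving out cells that drew 1% or more of their UMIs from these markers was among the alternatives given below. The markers' part in this ratio was not tested further. In Lef1-low CD8 T cells Itgb7 was higher, 136 and 220 CPM, at 0.691 (0.348 to 1.034), against 9.06% of genes, and at 0.036 when each library was clustered alone. The lower values over the whole neutrophil and interstitial macrophage classes stayed past 1.5-fold in every alternative run, from -1.363 to -1.126 and from -1.721 to -0.687.

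Itga4 was higher in cDC2, at 127 and 211 CPM or 0.731 (0.508 to 0.957), 1 of 9 members against 6.34% of genes. This stood in the clusters led by Cd209a, at 0.969 (0.654 to 1.291), and by Ube2c, at 0.971 (0.269 to 1.735), and was 0.221 (-0.141 to 0.591) in the one led by Mgl2. In that Mgl2 cluster, of 52 and 101 cells, Itgam was 159 and 295 CPM, 0.895 (0.463 to 1.346), and the mean tag 32.5 and 44.6. In group 2 innate lymphoid cells Itga4 was 139 and 232 CPM, 0.737 (0.086 to 1.414), and Itgav 220 and 358 CPM, 0.702 (0.185 to 1.233). There 3 of 6 members were past 1.5-fold higher against 9.07% of genes, the third being Itgb2 with an interval that includes 0. The members' median was 0.610 against 0.018 over all genes of that class, from 58 and 76 cells. When each library was clustered alone, Itgav in that class was -0.005 and Itga4 0.25, and with cells thinned to 1000 UMIs Itga4 in cDC2 was 0.397. The CD4 T cells led by Tnfsf8 and Il17a had the other Itgav difference, 588 and 1030 CPM, 0.808 (0.561 to 1.056), against 8.47% of genes, and 0.681 to 1.164 over the alternatives in which the class was found.

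The other values past 1.5-fold were as follows. In the cells with monocyte and neutrophil markers Itgax was 49.1 and 29.2 CPM (-0.748), Itgal 387 and 257 CPM (-0.587, interval -0.700 to -0.473) and Itgav 65.5 and 40.2 CPM (-0.703), against 9.46% of genes, and each of these 3 was within 1.5-fold under some alternative: Itgal was -0.457 and Itgav -0.574 with DESeq2 size factors, and Itgax was -0.442 with doublet calls kept. In CCR7 dendritic cells Itgb2 was 57.5 and 31.6 CPM, at -0.865 (-1.655 to -0.120), against 10.8% of genes. Itgb7 in alveolar macrophages (-0.635, against 2.48% of genes) and Itgb5 in classical monocytes (0.637, against 10.8% of genes) had intervals that include 0. In interstitial macrophages Itgax, at 190 and 263 CPM, stayed within 1.5-fold over the class, and was 0.645 (0.505 to 0.784) in the Gpnmb cluster and 0.445 (0.204 to 0.690) in the Ccl12 cluster.

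Among the genes that surround the integrins, several ligands were past 1.5-fold. In neutrophils 10 of 30 listed ligands and partner genes were measured, 1 higher and 4 lower past 1.5-fold, against 3.79% and 8.42% of all genes. Thbs1, the matrix protein thrombospondin-1, was 299 and 113 CPM (-1.403), Icam1, the ligand of LFA-1 and Mac-1, 115 and 60.3 CPM (-0.932), and Tgfb1, whose latent form αV integrins bind, 214 and 116 CPM (-0.891). Thbs1 was higher in KO-labelled classical monocytes, at 181 and 512 CPM (1.503), and in plasma cells, at 34.9 and 57.9 CPM (0.731), and was 245 and 326 CPM (0.41) in the cells with monocyte and neutrophil markers. Of 33 activation and adaptor genes measured in neutrophils, 0 were higher and 3 lower past 1.5-fold, among them Skap1 at 7.99 and 2.81 CPM (-1.506) and Plaur itself (-0.719), the gene targeted in the knockout, which is in this list. In NK cells 5 ligands were measured, 1 higher and 2 lower, against 3.8% and 3.6% of genes: Icam1 was 250 and 105 CPM (-1.247) and Icam2 23.7 and 43.3 CPM (0.869). The lower Icam1 was not particular to neutrophils and NK cells. It was also past 1.5-fold lower in classical monocytes (-1.193), plasma cells (-1.097), Lef1-low (-0.960) and Lef1-high (-0.895) CD8 T cells, and the cells with monocyte and neutrophil markers (-0.874). In no class was it among the ligands picked as higher.

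Macrophages and cDC2 differed in other members of these lists. In interstitial macrophages Itga9, 1 of 4 other chains measured, was 38.6 and 69.9 CPM (0.858), against 3.87% of genes past 1.5-fold higher, and of 15 ligands 1 was higher and 2 lower. Mfge8, which binds αV integrins, was 11.1 and 19.98 CPM (0.852), and Vegfa 19.1 and 8.83 CPM (-1.116). In alveolar macrophages Itga1 was 26.0 and 42.6 CPM (0.716) and Cdh1, E-cadherin, the ligand of the CD103 integrin, 40.9 and 81.4 CPM (0.993), against 2.88% of genes, while Cd200 was 47.8 and 28.6 CPM (-0.741), in 2 ligands higher and 1 lower of 13. In cDC2, Rassf5, an effector of Rap1 in LFA-1 activation, was 16.7 and 38.8 CPM (1.214), 1 of 3 higher and 1 lower of 35 activation and adaptor genes measured. The others higher were Parvb (1.242) and Plaur (0.799), and the lower one, Vcl, vinculin, was 94.5 and 58.4 CPM (-0.693), against 6.34% of genes higher and 3.32% lower.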

How the data were processed

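The gene and antibody UMI counts are those the authors deposited, unnormalised, and per the file headers come from Cell Ranger 7.0.0. The submitters' processing notes also name version 7.1.0 and mm10. The matrices hold no per-cell annotation. Barcodes under 200 genes or over 10% mitochondrial UMIs were left out, and doublets called at an expected 8% were removed. Cells of both libraries were clustered together (scanpy 1.11.5, 3000 variable genes, 30 components, 15 neighbours, Leiden resolution 1) into 39 clusters. A class needed 3 markers in 20% of cells at 2-fold. The members and gene lists, and the rules for naming and for keeping the mixed cluster apart, were chosen with earlier results of these data known.

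UMIs were summed per class and library as CPM with exact Poisson intervals. Ratios have exact conditional binomial intervals and shares exact Clopper-Pearson intervals, all at 95%, which cover counting error alone. Intervals of tag ratios relative to B cells leave out the counting error of the B cell mean. The limit set by a count of 0 is 3 counts. With 1 library per genotype no test was made, and a difference is called past 1.5-fold at 50 or more UMIs over both libraries. Thinning took 1000 UMIs per cell. Log values use a pseudocount of 10 CPM. Likeness was ranked over genes with at least 500 UMIs, naming the leading 5. All 10 members and the antibody are described in every class. Members past 1.5-fold with an interval excluding 0 are named, and of each list up to 3 genes per direction by the interval bound nearest 0. Ratios were tested on simulated data. edgeR 4.0.16 and DESeq2 1.42.0 gave alternative size factors only.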

Additional observations from a re-analysis of the deposited data

How the results depend on the processing

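No paired analysis was possible because there was 1 library per genotype. The alternatives on neutrophil-marker cells, the mixed cluster, NK and plasma cells, for the tag, clusters weighted alike, libraries clustered alone and tag per gene UMI, and for its correlation the median tag and RNA UMIs per cell were chosen after seeing the data.

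Of 157 alternative values of the RNA ratios named above, 148 moved by less than their counting interval, 8 moved further and 1 reversed, Itgav in group 2 innate lymphoid cells at -0.005 with each library clustered alone. The 14 pairs past 1.5-fold became 24 with each library clustered alone and 43 with no minimum of UMIs. With thinned cells, 4 of the 14 were still past 1.5-fold, of 94 pairs measured, and with TMM factors 10 of 14 were.

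The tag ratios depended more on the scale: of 51 values 15 stayed within their interval, 35 moved and 1 reversed, CCR7 dendritic cells at 0.209 by the median. These intervals take the B cell mean as fixed, which makes them narrower. The 5 classes past 1.5-fold became 2 by the median, 1 by the centred log-ratio, 2 with the B cell mean subtracted, 8 with each library clustered alone and 3 without cells rich in neutrophil markers. Over alternatives the neutrophil ratio ran from -0.731 to -0.304 and that of interstitial macrophages from -1.098 to -0.551.

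The correlation with Itgam and then Itgb2 (WT-labelled, KO-labelled) was 0.918 and 0.865, then 0.593 and 0.477, by the centred log-ratio of the tag. It was 0.914 and 0.859, then 0.596 and 0.482, with the median tag, and 0.925 and 0.850, then 0.684 and 0.644, with RNA UMIs per cell. Over clusters Itgam gave 0.850 (KO-labelled) and Itgb2 0.620 and 0.546. Without NK cells Itgam gave 0.914 and 0.854 and Itgb2 0.526 and 0.444, and without plasma cells Itgb2 gave 0.545 (WT-labelled). The remaining values are covered by the ranges that follow. Over all settings Itgam ran from 0.832 to 0.925 in the WT-labelled and from 0.739 to 0.865 in the KO-labelled library. Itgb2 ran from 0.415 to 0.684 and from 0.329 to 0.644. Itgam stayed above Itgb2 in all of these settings. The cause of these shifts was not tested. Depth limits Itgae, Itgb5 and Itgam in lymphocytes, where few UMIs were counted.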

Other observations

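Plasmacytoid dendritic cells, with 41 and 49 cells in the WT-labelled and KO-labelled library, were too few for the classes compared above. They carried neutrophil markers at a median 20.4% of the neutrophil level, 2 of 10 at 25% or more, and the part of these in the values that follow was not tested. Their mean CD11b tag was 119 and 87.3 UMIs per cell, with medians of 8 and 16, and Itgam stood at 153 and 165 CPM and Itga4 at 421 and 553 CPM. In all, 41.5% and 57.1% of them lay above the 95th percentile of B cells.

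A cluster without a name, led by Retnla, with 59 and 47 cells, had Itgam at 346 and 386 CPM, Itgax at 284 and 302 CPM and a mean tag of 120 and 86.1. Another, led by Il4i1, with 65 and 44 cells, had Itgax at 236 and 280 CPM, Itgam at 44.02 and 43.88 CPM and a mean tag of 45.4 and 37.6. Both chains of the CD11c integrin were counted in each: Itgb2 stood at 317 and 258 CPM in the former and 198 and 154 CPM in the latter.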
